A study of Homo sapiens with 4 samples.

Results

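The amino acid transporters described here are 32 genes, taken by an exact match of their symbols in the authors' deposited table of 57773 genes. They encode carriers of the plasma membrane, the lysosome and the mitochondrion, and all 32 symbols matched 1 gene each. Their mRNA was measured by RNA sequencing in KMS12PE and KMS11, both established human multiple myeloma cell lines, kept in RPMI-1640 medium with fetal bovine serum. Cells were exposed to 1 µM OSSL_325096, a compound named in the labels by this code, or to DMSO, the solvent control, for a time not given in the sources used here. There were 4 libraries, 1 for each line and treatment. The labels do not give the number of cultures behind each, so p-values measure only the spread between these libraries. The 2 libraries of a treatment came from different lines, so a spread within a treatment includes the difference between the lines. The deposited table compared the treatments over both lines and listed for each gene a level, a log2 fold change and its p-value. The level is the mean RPKM (reads scaled to transcript length and library size) of whichever treatment had the higher mean. Single-library values are not analysed here, so a spread between libraries, a response in each line and the overlap of the groups cannot be given. A positive log2 fold change means a higher level with OSSL_325096, by the order of the treatments in the table's title. In bulk RNA of this kind, fewer cells of a type and less RNA per cell cannot be told apart.

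Amino acid carriers decide which amino acids a cell can take up, trade or move between compartments, and many of them work as obligatory exchangers that let one amino acid in for another going out. Plasma cells and myeloma cells make large amounts of secreted immunoglobulin, which puts a heavy demand on amino acid supply. When amino acids run short, the transcription factor ATF4 is translated more and raises the transcription of amino acid synthesis enzymes and of a subset of transporters. ATF4 acts through short composite elements that it binds together with C/EBP proteins. Transporters commonly listed among its targets, called ATF4-listed below, are SLC7A1, SLC7A5, SLC7A11, SLC3A2, SLC1A4, SLC1A5, SLC6A9 and SLC38A2.

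The transporters spanned levels from 0 to 576 RPKM, and 25 of the 32 had a group mean of at least 1 RPKM, the minimum used for all counts below. At 1.5-fold or more, 3 of the 25 (12.0%) were lower with OSSL_325096 (SLC38A2, SLC43A1 and SLC7A11) and 1 was higher (SLC25A22). Among all 11324 genes of at least 1 RPKM, 4.95% were at least 1.5-fold lower and 4.95% at least 1.5-fold higher, so the single higher transporter was near the background share. The larger share of lower ones rests on 3 genes and depends on the settings. With no minimum on RPKM, 5 of 31 were lower beside 18% of all genes, and at 2-fold 0 of 25 beside 1.09%. Of the 25 transporters 15 had a log2 fold change below 0, beside 49.0% of all genes. Their median log2 fold change was -0.12 (quartiles -0.30 and 0.22), and that of all genes was 0.0087 (quartiles -0.21 and 0.22). The 19 transporters of at least 5 RPKM included 12 below 0, while 42.7% of all genes at that level were below 0.

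By the authors' p-values 0 of the 25 transporters passed, with Benjamini-Hochberg adjustment over all 11324 genes or without it (unadjusted p under 0.05). The lowest unadjusted p among them was 0.321, and their adjusted p was 0.9999. Over all genes, 0.0% passed the adjusted and 0.0442% the unadjusted threshold, and the lowest adjusted p of any gene was 0.9999. With almost no gene passing, a count of 0 does not show that genes were unchanged, here or in the lists below. To give each fold change an error, an implied standard error (SE) was taken as the size of the log2 fold change over the two-sided normal quantile that matches its p-value. That holds exactly only for a normal test, and the authors' model is not known here. Whether that model took the cell line into account is not known either. The implied SE, and any interval from it, may thus include the difference between the lines. Neither is read as the error of the treatment effect alone. Over all genes the median absolute log2 fold change was 0.21, far below the median implied SE. Values after ± are implied SEs. For the 25 transporters the implied SE ran from 0.87 to 1.49 on the log2 scale, with a median of 1.03, against a median of 1.10 for all genes. Each of the 25 fold changes was smaller than its implied SE, which the plot of transporters by role shows, so the values below describe direction and size without a call.

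**Figure D1:**
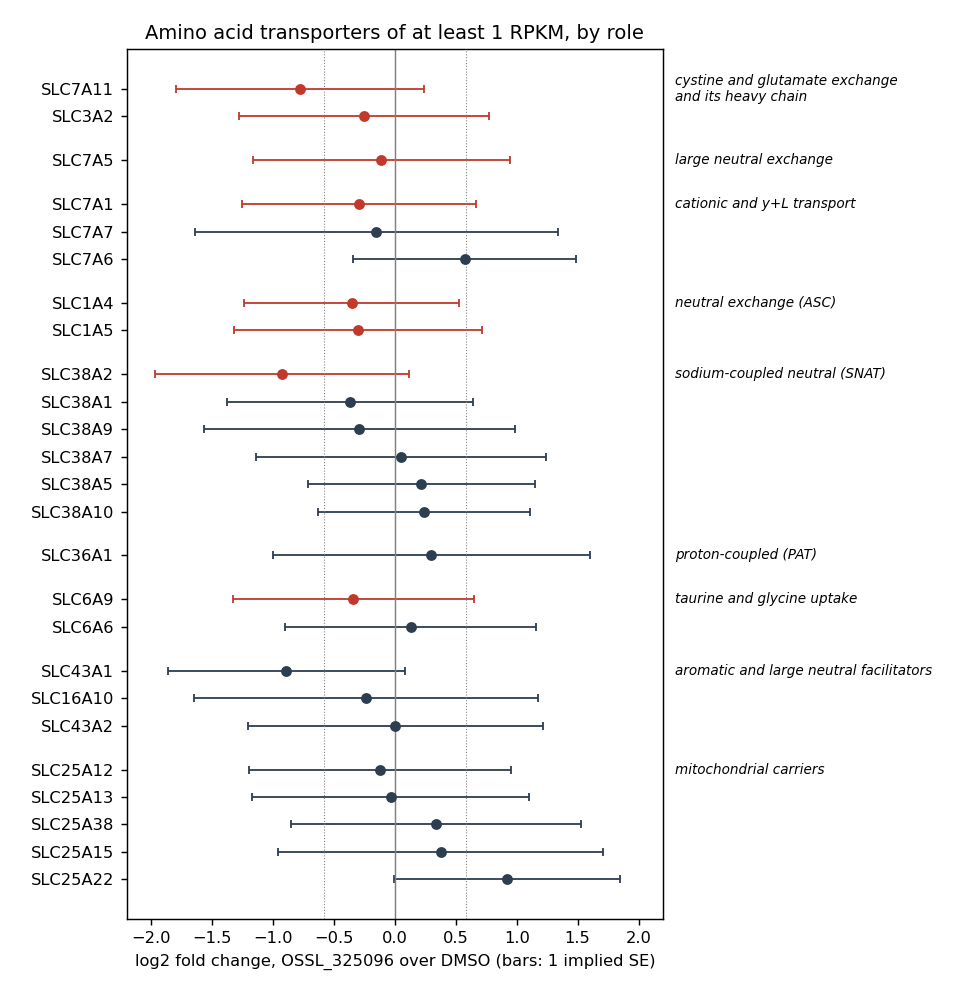
Horizontal axis, log2 fold change (OSSL_325096 over DMSO) for the 25 transporters of at least 1 RPKM, grouped by role, with bars of 1 implied SE and dotted lines at 1.5-fold. Red marks the 8 transporters listed as ATF4 targets, by a list written with results of these data known. All 8 lie below 0, beside 49.0% of all genes, and SLC25A22 at 0.92 and SLC38A2 at -0.93 stand at the ends.

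Cystine enters cells through system xc-, a pair of the light chain SLC7A11, which exchanges cystine for glutamate, and the heavy chain SLC3A2 (CD98hc), which carries several light chains to the plasma membrane. SLC7A11 (chromosome 4, 139085251 to 139163503, minus strand, hg19) had a level of 5.26 RPKM and was 1.71-fold lower with OSSL_325096 (log2 -0.78 ± 1.02, from the authors' deposited table). The interval of 95% from that SE ran from 0.147 to 2.32 as a ratio to DMSO. SLC3A2 (chromosome 11, 62623518 to 62656352, plus strand) stood at 100.5 RPKM and had a log2 fold change of -0.26 ± 1.03 by the authors' deposited table. The heavy chain was thus 19.1 times as abundant per length as SLC7A11, and its fold change was the smaller of the pair. Exons of SLC7A11 share 8.97% of their bases with SLC7A11-AS1 on the opposite strand, which was listed at 0.0589 RPKM.

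The main partner of SLC3A2 in proliferating cells is SLC7A5 (LAT1), which brings in leucine and other large neutral amino acids in exchange for glutamine. SLC7A5 (chromosome 16, 87863629 to 87903094, minus strand) was the second most abundant of the transporters at 205 RPKM, within the top 1.55% of genes, and 2.04 times the level of SLC3A2. Its log2 fold change was -0.11 ± 1.06 by the authors' deposited table, the smallest among the ATF4-listed transporters. SLC7A8 (LAT2), a light chain with similar substrates, was near 0 at 0.0126 RPKM. Together the 5 light chains SLC7A5, SLC7A6, SLC7A7, SLC7A8 and SLC7A11 summed to 226 RPKM, most of it SLC7A5.

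**Figure D2:**
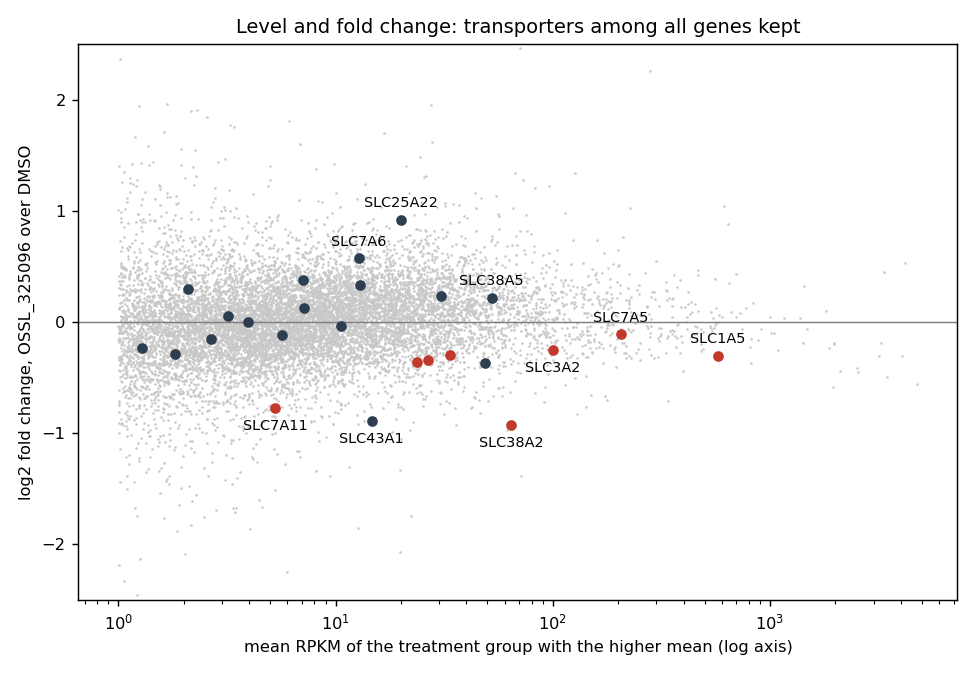
Level as the larger group mean in RPKM (horizontal, log axis) against log2 fold change (vertical) for the 25 transporters (red: ATF4-listed, dark: others) over all 11324 genes of at least 1 RPKM (grey). The axis ends at 2.5 in each direction and leaves out 14 genes; SLC1A5 at 576 RPKM lies at the right, and SLC38A2, SLC43A1 and SLC7A11 lie at the bottom of the transporters.

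Neutral amino acids such as glutamine, serine and alanine are also exchanged by the ASC carriers. SLC1A5 (ASCT2, chromosome 19, 47278140 to 47291851, minus strand), a glutamine exchanger, was the most abundant transporter at 576 RPKM, within the top 0.371% of genes and 2.81 times the level of SLC7A5. Its log2 fold change was -0.30 ± 1.02 by the authors' deposited table. SLC1A4 (ASCT1), which exchanges serine, alanine and cysteine, stood at 23.7 RPKM with a log2 fold change of -0.36 ± 0.88 by the authors' deposited table. The pair differed 24.3-fold in level and by 0.054 in log2 fold change.

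Arginine and lysine enter through SLC7A1 (CAT1), a cationic amino acid carrier that needs no heavy chain. SLC7A1 had 33.6 RPKM and a log2 fold change of -0.29 ± 0.96 by the authors' deposited table. SLC7A6 (y+LAT2), which pairs with SLC3A2 and exports arginine in exchange for glutamine and sodium, was on the other side at 12.8 RPKM and stood 1.49-fold higher (log2 0.57 ± 0.92, from the authors' deposited table), just under the 1.5-fold threshold. Of the annotated exonic bases of SLC7A6, 44.4% also belong to SLC7A6OS on the opposite strand, which the authors' deposited table gave 6.65 RPKM and a log2 fold change of 0.15. The sources used here do not say whether reads were counted by strand, so the value of SLC7A6 may hold reads of both genes. SLC7A7 (y+LAT1), the related carrier of kidney, gut and macrophages, had 2.66 RPKM and a log2 fold change of -0.15 ± 1.49 by the authors' deposited table.

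Promoters of the transporters were searched for the element through which ATF4 acts. RefSeq promoter windows (GRCh38.p14; 250 bases before to 50 after an annotated start) were found for 28 of the 32 transporters, 52 windows in all, and none for SLC7A2, SLC43A3, SLC7A11 and SLC6A6. The letters TGATGNAAN, the C/EBP-ATF response element, were searched on both strands. A match was found in 6 of the 52 windows (11.5%), in 3.61% of all 35116 windows and in 1.91% of the 11589 windows of genes of at least 1 RPKM. The 6 windows belonged to SLC1A5, SLC1A4, SLC3A2, SLC7A1, SLC38A1 and SLC1A3. The first 5 were at 23.7 RPKM or more and all had a log2 fold change below 0, beside 49.0% of all genes. Of all 10 transporters of at least 20 RPKM, with a match or without, 8 were below 0. Among all genes of at least 20 RPKM, 38.2% were below 0. SLC1A3 was at 0.0195 RPKM. Of the 6, 4 are ATF4-listed, by a list written with results of these data known. Whether the element bears on the fold changes was not tested. Among the ATF4-listed transporters with a window, SLC7A5, SLC6A9 and SLC38A2 had no match, nor had SLC43A1. SLC38A2 and SLC43A1 had the lowest fold changes of the 25 measured. Sequence outside the windows, which takes in most intron sequence, was not searched. A window without a match thus does not show that a gene lacks the element. The stretches of the first 5 are printed to show the element in measured transporters; none of these 5 was past 1.5-fold or passed the authors' p-value. Each reads 5′ to 3′ on the gene's strand, with the matched letters in capitals; in SLC1A4 and SLC3A2 the match is on the opposite strand.
SLC1A5: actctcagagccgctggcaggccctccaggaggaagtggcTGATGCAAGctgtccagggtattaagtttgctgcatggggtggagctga
SLC1A4: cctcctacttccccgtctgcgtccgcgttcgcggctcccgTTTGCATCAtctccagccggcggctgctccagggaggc
SLC3A2: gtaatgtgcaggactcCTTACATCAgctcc
SLC7A1: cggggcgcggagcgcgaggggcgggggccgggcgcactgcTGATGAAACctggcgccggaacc
SLC38A1: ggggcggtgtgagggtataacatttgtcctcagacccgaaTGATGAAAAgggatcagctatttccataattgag
The stretch of SLC1A5 is chr19:46784863-46784951 (minus strand), from window 3 of that gene, with the match starting at position -97 from that window's transcript start. The other windows of SLC1A5, at other annotated starts, had no match to this element. The stretch of SLC1A4 is chr2:64989351-64989428 (plus strand), from window 2 of that gene, with the match from position -8. That of SLC3A2 is chr11:62881719-62881748 (plus strand), with the match from position 37. Those of SLC7A1, chr13:29595659-29595721, and SLC38A1, chr12:46266487-46266560, are both on the minus strand, with matches from positions 8 and -4. A match describes these letters in the reference and does not show that a protein bound there.

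Sodium-coupled neutral carriers of the SLC38 family concentrate glutamine, alanine and related amino acids. SLC38A2 (SNAT2, chromosome 12, 46751972 to 46766650, minus strand), a carrier known to be induced by amino acid shortage, had the lowest fold change of the 25 transporters. It had 64.3 RPKM and was 1.90-fold lower (log2 -0.93 ± 1.04, from the authors' deposited table). The interval of 95% from that SE ran from 0.128 to 2.16 as a ratio to DMSO. SLC38A1 (SNAT1), its neighbour 88171 bases away on the same strand with 0 genes of the table wholly between them, had 48.6 RPKM and a log2 fold change of -0.37 ± 1.01 by the authors' deposited table. The neighbours thus had similar levels and differed by 0.56 in log2 fold change. The implied SE of each was larger, but it is not the error of a difference between genes, which was not tested.

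Other members of the family lay nearer to 0 or above it, and SLC38A10 and SLC38A7 turned just below 0 with the GC trend described below removed. SLC38A5 (SNAT5), a glutamine, serine and glycine carrier on the X chromosome, had 52.3 RPKM and a log2 fold change of 0.22 ± 0.93 by the authors' deposited table. SLC38A10, a family member of less defined transport, had 30.7 RPKM and 0.24 ± 0.87 by the authors' deposited table. SLC38A7 (SNAT7), which releases glutamine and asparagine from lysosomes, had 3.20 RPKM and 0.050 ± 1.19 by the authors' deposited table. SLC38A9, the lysosomal arginine sensor that signals to mTORC1, had 1.83 RPKM and -0.29 ± 1.28 by the authors' deposited table. The plasma membrane carriers SLC38A1, SLC38A2 and SLC38A5 were thus 15.2 to 35.1 times as abundant per length as the lysosomal SLC38A7 and SLC38A9.

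Proton-coupled carriers export small neutral amino acids from lysosomes. SLC36A1 (PAT1) had 2.09 RPKM and a log2 fold change of 0.30 ± 1.30 by the authors' deposited table. SLC36A4, a proline and tryptophan carrier, fell just short of the minimum at 0.991 RPKM, with -0.38 ± 1.51 by the authors' deposited table. The 3 lysosomal carriers SLC38A7, SLC38A9 and SLC36A1 were all at 3.20 RPKM or less and had fold changes in both directions.

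Glycine and taurine are taken up by sodium- and chloride-coupled carriers of the SLC6 family. SLC6A9 (GlyT1), the glycine carrier, had 26.6 RPKM and a log2 fold change of -0.34 ± 0.99 by the authors' deposited table. Its exons share 7.87% of their bases with CCDC24 on the opposite strand, which was listed at 1.47 RPKM. SLC6A6 (TauT), the taurine carrier, had 7.19 RPKM and 0.13 ± 1.03 by the authors' deposited table.

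Facilitated carriers let large neutral and aromatic amino acids run down their gradients. SLC43A1 (LAT3, chromosome 11, 57252007 to 57283259, minus strand), a leucine and phenylalanine uniporter, had 14.7 RPKM and was 1.85-fold lower (log2 -0.89 ± 0.98, from the authors' deposited table). The interval of 95% from that SE ran from 0.143 to 2.03 as a ratio to DMSO. SLC43A2 (LAT4), a uniporter for the same substrates, had 3.95 RPKM and 0.0046 ± 1.21 by the authors' deposited table, a value that turned below 0 when centred or with the GC trend removed. SLC16A10 (TAT1), the aromatic amino acid carrier, had 1.28 RPKM and -0.23 ± 1.41 by the authors' deposited table. SLC43A3, now known as a carrier of purine bases, lies 56953 bases from SLC43A1 and stood at 0.189 RPKM, against which SLC43A1 was 77.7 times as abundant. Only SLC43A1 of these 4 passed 1.5-fold among genes of at least 1 RPKM.

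Mitochondrial carriers of the SLC25 family had the highest median of the role groups with more than 1 measured gene, 0.34 over 5 genes. The role groups were written with results of these data known, so this rank is a description. As deposited 3 were above 0, and 5 with the GC trend described below removed. Among all genes 49.0% were below 0 as deposited and 49.8% with the trend removed, so 3 of 5 was near the background share. SLC25A22 (chromosome 11, 790475 to 798316, minus strand), which brings glutamate into the mitochondrion with a proton, had 19.9 RPKM and was 1.89-fold higher (log2 0.92 ± 0.93, from the authors' deposited table). The interval of 95% from that SE ran from 0.538 to 6.65 as a ratio to DMSO. SLC25A38, the glycine importer that serves heme synthesis, had 12.9 RPKM and 0.34 ± 1.19 by the authors' deposited table. SLC25A15, the ornithine carrier of the urea cycle, had 7.10 RPKM and 0.38 ± 1.33 by the authors' deposited table. The aspartate and glutamate exchangers of the malate-aspartate shuttle lay near 0 and turned just above it with that trend removed, SLC25A13 (citrin, 10.6 RPKM) with -0.035 and SLC25A12 (aralar, 5.67 RPKM) with -0.12 in the authors' deposited table. Their implied SEs were 1.14 and 1.08. The 5 mitochondrial levels spanned 5.67 to 19.9 RPKM, a narrower range than that of the plasma membrane carriers.

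The 7 transporters under 1 RPKM complete the list. SLC1A1 (EAAT3) was listed at 0 RPKM with no fold change, and SLC1A3 (EAAT1) at 0.0195 RPKM, so both glutamate uptake carriers were at or near 0. SLC7A2 (CAT2), the second cationic carrier, stood at 0.118 RPKM and SLC38A6 at 0.546 RPKM. The fold changes of the 6 listed above 0 ran from -1.38 (SLC1A3) to 0.85 (SLC7A8) in the authors' deposited table, with implied SEs from 1.51 to 2.09. Their implied SEs all exceeded those of the 25 measured transporters.

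The ATF4-listed transporters were then set beside the rest. All 8 were measured and all 8 had a log2 fold change below 0, beside 49.0% of all genes. Their median was -0.32, with a range from -0.93 to -0.11. Of the other 17 measured transporters 7 were below 0, with a median of 0.050 and a range from -0.89 to 0.92. The 8 were also the more abundant, with a median of 49.0 RPKM beside 3.57 RPKM over the other 24, measured or not. These sets are unlike, since only the 24 include transporters under 1 RPKM, which lowers their median. This list was written with results of these data known, so its count is a description and no independent evidence of a direction. Of its 8 genes 2 were at least 1.5-fold lower, SLC38A2 and SLC7A11, and 0 passed the authors' unadjusted p of 0.05.

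Of 22 measured genes among ATF4 and its targets outside the transporters, 18 were below 0 and 4 above, beside 49.0% of all genes below 0. At 1.5-fold, 9 were lower and 0 higher, beside 4.95% of all genes in each direction. Their median was -0.38, and 0 passed the unadjusted threshold. This list too was written with results of these data known. ATF4 itself had a level of 315 RPKM and -0.11 ± 1.05 by the authors' deposited table. CTH, which makes cysteine from cystathionine and so offers a second source of the amino acid that SLC7A11 imports as cystine, had -2.07 ± 1.10 by the authors' deposited table. ASNS, asparagine synthetase, had -0.97, CHAC1, a glutathione-degrading enzyme, -0.82 and the transcription factor gene ATF3 -0.77 in the authors' deposited table. The list ran from -2.07 to 0.57. SLC38A2 and SLC7A11 lay within that wide range, and so did SLC43A1, which is not ATF4-listed.

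The remaining amino acid transporters of the same and related families had fold changes around 0. Of 40 listed, 11 were at 0 RPKM and 10 reached 1 RPKM. Of these 10, 4 were below 0, beside 49.0% of all genes, with a median of 0.016. SLC6A15, a neutral amino acid carrier, had -0.72 ± 1.84 by the authors' deposited table, and was the only one of the 10 past 1.5-fold. CTNS, the lysosomal cystine exporter, had 0.24, PQLC2, the lysosomal exporter of cationic amino acids, -0.19 and SFXN2 -0.10 in the authors' deposited table. The plot of gene lists shows the 8 ATF4-listed transporters beside these groups.

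**Figure D3:**
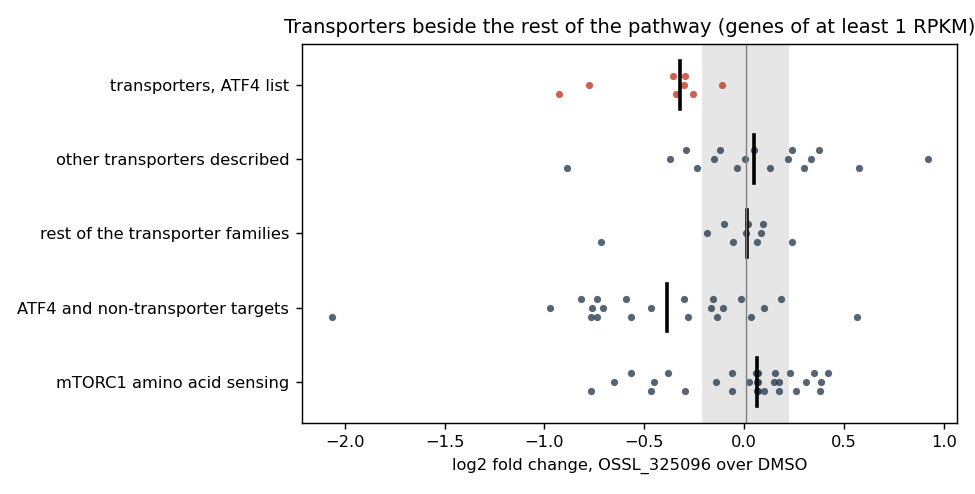
Horizontal axis, log2 fold change (OSSL_325096 over DMSO) for genes of at least 1 RPKM in 5 lists; points are genes, black bars medians, and the grey band the quartiles of all genes (-0.21 to 0.22). The ATF4-listed transporters have a median of -0.32 and the ATF4 targets outside the transporters -0.38, while the other 3 lists have medians between 0.016 and 0.067.

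The E-box CACGTG, the letters that MYC and the lysosomal regulators TFEB and TFE3 recognise, was searched in the same windows (it reads alike on both strands). It was found in 11 of the 52 windows (21.2%), in 7.26% of all windows and in 9.73% of those of genes of at least 1 RPKM. The 11 windows belonged to 11 transporters with fold changes in both directions. Stretches are printed for 4 of them that span this range, from SLC43A1 at -0.89 and SLC7A5 at -0.11 to SLC36A1 at 0.30 and SLC25A22 at 0.92 in the authors' deposited table; capitals mark the E-box.
SLC43A1: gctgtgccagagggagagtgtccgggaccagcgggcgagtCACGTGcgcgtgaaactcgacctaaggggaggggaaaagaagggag
SLC7A5: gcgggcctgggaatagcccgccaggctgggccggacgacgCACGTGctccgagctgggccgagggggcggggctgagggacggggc
SLC36A1: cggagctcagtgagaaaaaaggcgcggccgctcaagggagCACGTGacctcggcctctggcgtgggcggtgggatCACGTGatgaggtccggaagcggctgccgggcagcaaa
SLC25A22: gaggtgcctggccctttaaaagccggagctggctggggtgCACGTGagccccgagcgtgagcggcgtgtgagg
These lie at chr11:57515769-57515854 (minus strand), chr16:87869592-87869677 (minus strand), chr5:151447520-151447632 (plus strand) and chr11:795403-795475 (minus strand) of GRCh38.p14. The stretch of SLC36A1 holds 2 E-boxes, and that of SLC25A22 comes from the fourth of its windows. The response element and the E-box share no letters in any printed stretch, and SLC1A5 had both motifs, in different windows.

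The fold changes moved with the GC content of transcripts over the whole table, and by rank less closely among the few transporters, where the relation was not tested. Over the 25 transporters, Spearman's rho between GC content and log2 fold change was 0.28 and Pearson's r 0.43; over 11104 genes rho was 0.47. These are descriptions across genes that share the same 4 libraries. SLC38A2 and SLC7A11 had transcripts of low GC content, 38.3% and 38.6%, SLC25A22 was GC-rich at 64.1%, and SLC43A1, also GC-rich at 60.2%, went the other way. The ATF4-listed transporters had a median of 56.9% GC, above the 50.2% of all genes. With the trend in GC content, transcript length and level removed, the log2 fold change of SLC38A2 was -0.77, of SLC7A11 -0.62, of SLC43A1 -1.10 and of SLC25A22 0.66, so the same 4 genes were past 1.5-fold. The 8 ATF4-listed transporters, from a list written with results of these data known, were again all below 0, beside 49.8% of all genes. Their median moved from -0.32 to -0.46. The other transporters had a median of 0.010, with 8 of 17 below 0.

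**Figure D4:**
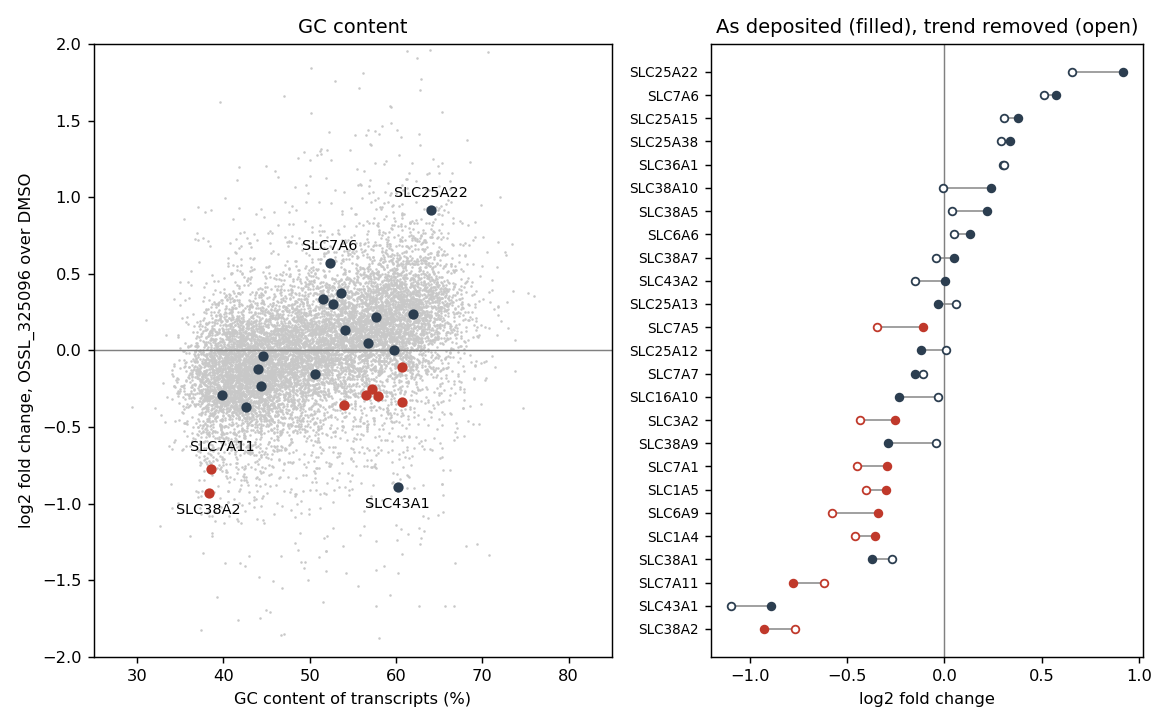
Left, GC content of transcripts (horizontal, percent) against log2 fold change for the 25 transporters (red: ATF4-listed) over all genes (grey); the axis ends at 2 and leaves out 19 genes. Right, the log2 fold change of each transporter as deposited (filled) and with the trend removed (open), where SLC38A2, SLC7A11, SLC43A1 and SLC25A22 keep the extreme positions.

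The labelled cell type was checked against its markers. All 9 plasma cell markers looked at were measured, from 6.26 RPKM (SLAMF7) to 189 RPKM (MZB1). Of the 9, 7 had a log2 fold change below 0, beside 49.0% of all genes. At 1.5-fold 3 were lower and 1 higher, beside 4.95% of all genes in each direction. In the authors' deposited table CD38 had -0.73, IRF4 -0.67, TNFRSF17 -0.66 and SDC1 0.60, and 0 of the 9 passed an unadjusted p of 0.05. Of 9 markers found in the table (PECAM1 was not matched) of T cells, myeloid cells, fibroblasts, epithelium and red cells, 8 were at 0.169 RPKM or less, with CD3D at 0, and the epithelial adhesion gene EPCAM had 15.8 RPKM. EPCAM had -0.18 on the log2 scale in the authors' deposited table, and its part in any result was not tested.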

How the data were processed

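Libraries of polyadenylated RNA from KMS12PE and KMS11, treated with 1 µM OSSL_325096 or DMSO, were compared by the submitters. Per the labels' protocols, mRNA was captured with oligo(dT) and copied from random hexamers. The series' design text names hg19 and Biomedical Genomics Workbench 5; the sources used here give no counting rule, strand, annotation, model or read number, so depth is unknown.

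The deposited table has 6 columns of values and 0 of single libraries. The authors deposited, per the file headers, RPKM as a group mean, a log2 fold change, the same fold change as a signed score, and p-values (unadjusted, false discovery rate, Bonferroni; the false discovery rate is 0.999995 for each transporter with a fold change). The design's limma fit needs single libraries, so the authors' p-values were used.

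Genes of at least 1 RPKM were kept (11324), and Benjamini-Hochberg adjusted p-values recomputed over all of them. All 32 members are named; of each other list, up to 4 genes with the largest absolute fold change, and ATF4. Members and lists were chosen with earlier results of these data known. GC content and length are medians over transcripts of GENCODE 44 on GRCh37 (98.1% of genes); a regression with terms to degree 3 explained 15.8% of the variance. Adjustment, SE and regression were tested on simulated data. Python 3.11.15, pandas 2.3.3, numpy 2.4.6, scipy 1.17.1 and matplotlib 3.10.9 were used.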

Additional observations from a re-analysis of the deposited data

How the results depend on the processing

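Counts at 1.5-fold depended on the threshold and the minimum. With no minimum on RPKM, 7 of 31 transporters were past 1.5-fold, 2 higher and 5 lower, beside 19.8% of all genes higher and 18% lower. At the lower alternative threshold there were 10 of 25, 4 higher and 6 lower, beside 16.4% and 15.2% of all genes. At 2-fold there were 0, with 0 higher and 0 lower, beside 0.989% and 1.09%. A minimum of 5 RPKM, centring and removal of the GC trend left 1 higher and 3 lower. The median stayed between -0.15 and -0.044. Centring turned SLC43A2 (-0.0041). Removing the trend turned SLC43A2 (-0.15), SLC38A10 (-0.0058), SLC25A13 (0.059), SLC25A12 (0.010) and SLC38A7 (-0.043); the cause was not tested. Adjusting p-values over all 23130 genes with a fold change left 0 transporters under 0.05. No paired analysis was possible because the table holds 0 columns of single libraries, and for the same reason no library could be left out.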

Other observations

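Genes that sense amino acids for mTORC1, the kinase complex that turns on growth when amino acids are plentiful, were nearly all measured (30 of 31). Their median log2 fold change was 0.067, with 10 of the 30 below 0, beside 49.0% of all genes. The members furthest from 0 were all lower in the authors' deposited table: SESN1 at -0.77, FNIP1 at -0.65, LAMTOR3 at -0.57 and SESN2 at -0.47, with implied SEs of 1.34, 1.09, 1.12 and 1.03. Sestrins SESN1 and SESN2 bind leucine and restrain mTORC1, and SESN2 is also on the list of ATF4 targets.

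Genes that make or use glutathione from the cysteine that SLC7A11 supplies had fold changes in both directions. Of 12 measured, SLC7A11 included, 5 were below 0, beside 49.0% of all genes, with a median of 0.10. With the GC trend removed 7 were below 0 and the median was -0.020, so its sign depends on that step. At 1.5-fold, 3 were lower (CTH, CHAC1 and SLC7A11) and 0 higher, beside 4.95% of all genes in each direction. Of the 12, 0 passed an unadjusted p of 0.05. These 3 and SLC3A2 also stand on the ATF4 lists. CHAC2, a second glutathione-degrading enzyme, had 0.43 ± 1.48 (implied SE) by the authors' deposited table.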
